A study of Homo sapiens with 6 samples.

Results

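The genes described here are the death receptor, TRAIL and IAP genes of T24 cells: the death receptor gene FAS, the TRAIL receptor genes TNFRSF10A, TNFRSF10B and TNFRSF10D, the TRAIL gene TNFSF10, the initiator caspase gene CASP8 and its regulator CFLAR, and the inhibitor of apoptosis genes BIRC2, BIRC3 and XIAP. They were chosen by name for their place in the extrinsic apoptosis pathway, with earlier results of these data known. They are 10 of the 58174 genes in the deposited tables. Expression is given as RPKM, read numbers divided by gene length and by the sample's mapped reads. All 10 passed the filter on low values, 0.5 RPKM or more in any 3 samples, and so were among the 12428 genes tested.

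Death receptors are cell surface proteins of the TNF receptor superfamily. When a ligand such as TRAIL or FAS ligand binds, the receptor's intracellular death domain gathers the adaptor FADD and the initiator caspase encoded by CASP8, which starts the caspase cascade unless the CFLAR product, also called FLIP, takes its place in the complex. The inhibitor of apoptosis proteins (IAPs) act further on: XIAP binds caspases directly, while the products of BIRC2 and BIRC3 are ubiquitin ligases of the TNF receptor complex, and BIRC3 is a known target of NF-kappaB. In the bladder, TRAIL is known as a ligand that neutrophils release during BCG therapy.

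T24 is a long-used line of human bladder cancer cells. They carried a lentiviral pLKO.1 vector with either a hairpin against UBC9 (shRNA-UBC9) or a scrambled control (shRNA-NC), all under puromycin selection until stable, and polyA RNA of 3 samples of each group was sequenced. UBC9 is the conjugating enzyme of SUMO modification, and the comparison asks which genes follow its level. A single hairpin against UBC9 was used, so that the response to the loss of UBC9 and to this hairpin cannot be told apart, and the labels do not say whether the samples of a group came from separate cultures, so that p-values measure only the spread between these samples. Between samples, 0 genes had equal values other than 0, and no library appeared to be deposited again.

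The low RPKM values rose in steps worth 1 read, from which the mapped reads per sample were recovered as 28219032 to 36058872, and the values of 12428 of the 12428 tested genes were whole reads to within 0.01 read. The epithelial genes KRT7, KRT8 and KRT18 were high in every sample, while the epithelial cadherin CDH1 stayed below 0.5 RPKM. The mesenchymal genes VIM, CDH2 and AXL were expressed in every sample as well, with a summed level of 562.0 to 663.0 RPKM in shRNA-NC and 391.0 to 569.0 RPKM in shRNA-UBC9. Of 6 markers of differentiated urothelium, the 4 uroplakins stayed below 0.5 RPKM, while GATA3 and PPARG were expressed in every sample, and the summed level of the 6 lay between 22.9 and 30.1 RPKM in shRNA-NC and between 6.5 and 11.2 RPKM in shRNA-UBC9. The summed level of the 6 epithelial markers lay between 938.0 and 1110.0 RPKM in shRNA-NC and between 426.0 and 563.0 RPKM in shRNA-UBC9, nearly all of it from keratins. EPCAM did not share this fall, at 0.412, 0.986 and 0.575 RPKM in shRNA-NC and 2.51, 1.27 and 0.732 in shRNA-UBC9. The 3 endothelial markers summed to 2.64 to 3.26 RPKM in shRNA-NC and 0.316 to 1.07 in shRNA-UBC9, most of it from CDH5. For the 5 fibroblast markers the sums were 0.978 to 1.32 and 0.882 to 1.27 RPKM. Of 6 leukocyte markers, MS4A1 was at 0 in all samples and PTPRC reached at most 0.102 RPKM, while the summed level of the 6 lay between 2.06 and 4.05 RPKM in shRNA-NC and between 19.6 and 49.3 RPKM in shRNA-UBC9, most of it from CD68. The part of these marker levels in the results was not tested.

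With UBC9 knocked down, the IAP genes BIRC2, BIRC3 and XIAP were up-regulated with CFLAR, CASP8 and TNFRSF10A, and FAS was down-regulated. At an adjusted p below 0.05 (limma, Benjamini-Hochberg over all tested genes), 6 of the 10 genes were higher in shRNA-UBC9, against 18.8% of all tested genes. They were BIRC3, TNFRSF10A, BIRC2, CFLAR, XIAP and CASP8, in order of their log2 fold change. FAS was the 1 gene that was lower, against 18.0% of all tested genes, and TNFSF10, TNFRSF10B and TNFRSF10D did not pass. In the same 6 genes no shRNA-NC sample reached the lowest shRNA-UBC9 sample, as in 25.7% of all tested genes, and in FAS no shRNA-UBC9 sample reached the lowest shRNA-NC sample, as in 25.4% of them. The median log2 fold change of the 10 genes was 0.50, and that of all tested genes was 0.005. BIRC3 alone was an up-regulated DEG (|log2 fold change| > 1 and adjusted p below 0.05), as were 5.2% of all tested genes, and FAS alone was a down-regulated DEG, as were 2.7%. As the 10 genes were chosen with earlier results of these data known, these counts and shares describe them and do not test the set. The calls of FAS and CASP8 were less firm than the other 5. With 1 sample left out in turn, an adjusted p below 0.05 was kept in 1 of 6 fits for FAS and 2 of 6 for CASP8. In cells measured in bulk, a change in the share of cells with a transcript and a change of its amount per cell cannot be told apart.

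**Figure D1:**
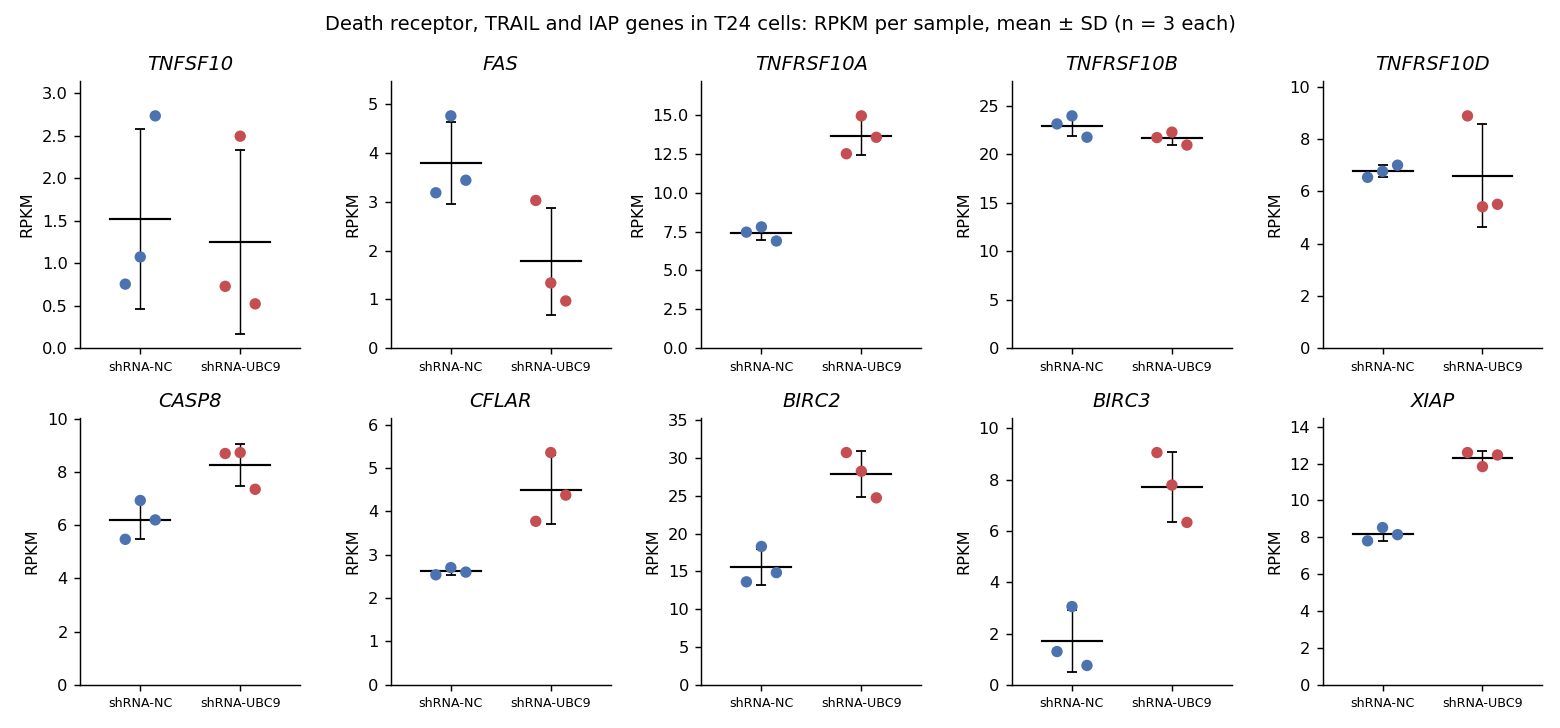
Expression in RPKM (vertical axes, from 0) of the 10 genes in the 3 shRNA-NC (blue) and 3 shRNA-UBC9 (red) samples, with points in the order of the replicate numbers and bars for the mean ± SD. The groups stand apart for TNFRSF10A, BIRC2, BIRC3, XIAP, CFLAR, CASP8 and, downwards, FAS, and they overlap for TNFSF10, TNFRSF10B and TNFRSF10D.

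Among the IAP genes, BIRC3 (chr11:102317484-102339403, plus strand, GRCh38) changed by the most. It lies beside BIRC2 (chr11:102347211-102378670, plus strand), and both products carry a RING domain with ubiquitin ligase activity. The 250 bases before the RefSeq start of BIRC3 are shown because the gene is a textbook target of NF-kappaB and because their letters hold a pair of matches to the kappaB consensus, set in capitals (RefSeq, GRCh38.p14, chr11:102317234-102317483, plus strand).
BIRC3: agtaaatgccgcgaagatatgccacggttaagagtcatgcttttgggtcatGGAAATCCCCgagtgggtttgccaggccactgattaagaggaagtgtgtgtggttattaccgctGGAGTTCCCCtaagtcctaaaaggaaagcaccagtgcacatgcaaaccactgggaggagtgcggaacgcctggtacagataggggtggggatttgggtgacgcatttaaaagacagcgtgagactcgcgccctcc
The matches begin 199 and 135 bases before the start. The consensus reads GG, a pair of purines, any pair of bases, a pair of pyrimidines and CC, was searched on both strands and reads alike on both. Of 35116 RefSeq windows that run from 250 bases before a gene start to 50 bases after it, 14.0% held at least 1 match and 2.42% held 2 or more. As the stretch was shown for its matches, these shares cannot weigh them, and binding by NF-kappaB was not tested.

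BIRC3 was at 1.30, 3.05 and 0.755 RPKM in shRNA-NC replicates 1, 2 and 3 and at 9.06, 7.79 and 6.33 RPKM in shRNA-UBC9 replicates 1, 2 and 3. Every shRNA-UBC9 sample lay above the highest shRNA-NC sample, and the shRNA-NC samples themselves spread widely, with replicate 2 highest and replicate 3 lowest. The log2 fold change was 2.32 ± 0.41 (SE, 95% interval 1.39 to 3.24, adjusted p = 0.00336, limma), a 4.98-fold rise. It rested on 192 to 795 reads per sample in shRNA-NC and on 1344 to 2456 in shRNA-UBC9.

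BIRC2 was at 13.6, 18.3 and 14.8 RPKM in shRNA-NC and at 30.7, 28.3 and 24.7 RPKM in shRNA-UBC9, again in the order of replicates 1, 2 and 3. The groups did not overlap, and BIRC2 rose 1.79-fold, with a log2 fold change of 0.84 ± 0.13 (SE, 95% interval 0.54 to 1.14, adjusted p = 0.00199, limma). XIAP (chrX:123859712-123913972, plus strand), the IAP that inhibits caspases by direct binding, was the most even of the 3. It was at 7.81, 8.53 and 8.15 RPKM in shRNA-NC and at 12.6, 11.8 and 12.5 RPKM in shRNA-UBC9. The spread within either group was small beside the distance between them, and XIAP rose by 0.59 ± 0.08 on the log2 scale (SE, 95% interval 0.40 to 0.78, adjusted p = 0.00129, limma). No match to the kappaB consensus was found in the 2 RefSeq windows of BIRC2 or the 3 of XIAP.

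Because a ratio of genes within a sample does not depend on the scaling of that sample, BIRC3 was also set against the other IAP genes. Its RPKM was 9.52%, 16.7% and 5.09% of that of BIRC2 in shRNA-NC replicates 1, 2 and 3 and 29.5%, 27.6% and 25.6% in shRNA-UBC9 replicates 1, 2 and 3. Against XIAP it was 16.6%, 35.8% and 9.26% in shRNA-NC and 71.9%, 65.8% and 50.8% in shRNA-UBC9. Both ratios were higher in every shRNA-UBC9 sample than in any shRNA-NC sample. The differences were 1.48 and 1.73 on the log2 scale (exact permutation test, two-sided, p = 0.1 each, the smallest that 3 samples against 3 allow, adjusted p = 0.2 over the 6 ratios compared). In shRNA-UBC9 the ratio of BIRC3 to BIRC2 had an SD of 0.10 on the log2 scale (n = 3), and in shRNA-NC one of 0.79 (n = 3).

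**Figure D2:**
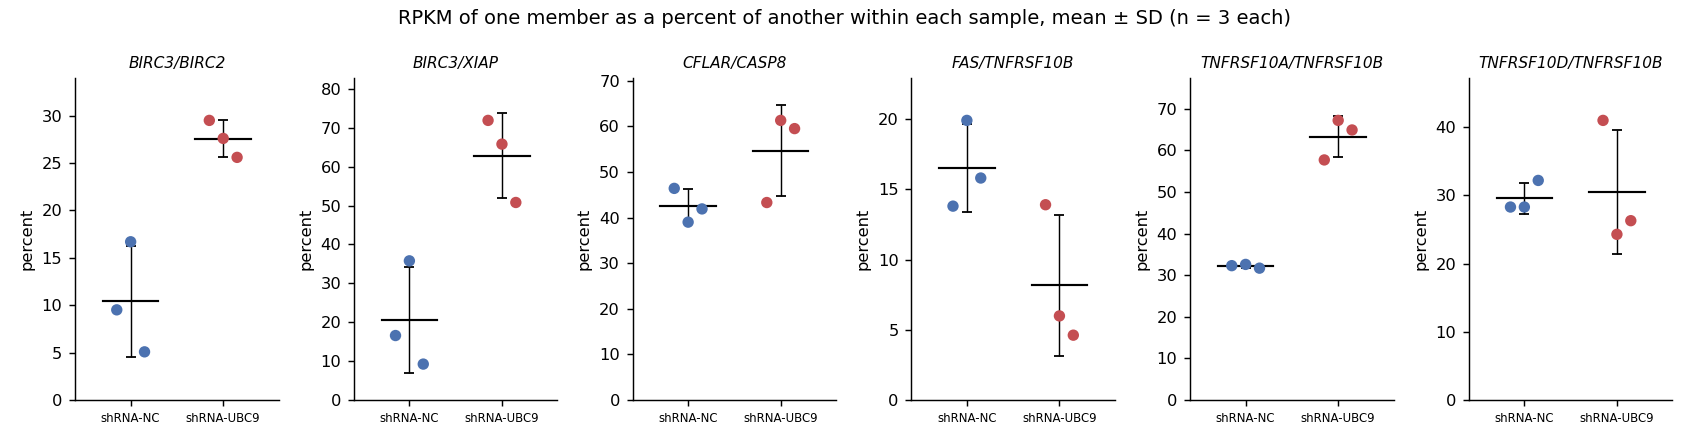
RPKM of 1 gene as a percent of the RPKM of another within each sample (vertical axes, from 0), for the 3 shRNA-NC (blue) and 3 shRNA-UBC9 (red) samples, with the mean ± SD. BIRC3 against BIRC2 and XIAP, and TNFRSF10A against TNFRSF10B, do not overlap between the groups, while the other 3 ratios do.

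Of the 4 receptor genes, 1 was higher (against 18.8% of all tested genes), 1 was lower (against 18.0%) and 2 did not pass. TNFRSF10A, TNFRSF10B and TNFRSF10D form a cluster on chromosome 8 with TNFRSF10C and bind the same ligand, TRAIL. TNFRSF10A and TNFRSF10B (DR4 and DR5) carry a working death domain, while TNFRSF10D and TNFRSF10C are decoys that bind TRAIL without passing on a complete death signal. Their sequences are related, and the treatment of reads that match several places was not given in the sources used here, so a share of their reads may belong to another member of the cluster.

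TNFRSF10A (chr8:23190452-23225102, minus strand) was at 7.47, 7.81 and 6.90 RPKM in shRNA-NC replicates 1, 2 and 3 and at 12.5, 14.96 and 13.6 RPKM in shRNA-UBC9 replicates 1, 2 and 3. The groups were well apart, and the gene rose 1.84-fold, a log2 fold change of 0.88 ± 0.10 (SE, 95% interval 0.65 to 1.10, adjusted p = 0.000482, limma), the smallest adjusted p of the 10 genes. TNFRSF10B (chr8:23020133-23069031, minus strand), the TRAIL receptor with the highest level, was at 23.1, 23.9 and 21.8 RPKM in shRNA-NC and at 21.7, 22.3 and 20.9 RPKM in shRNA-UBC9. The groups overlapped, with a log2 fold change of -0.08 (95% interval -0.27 to 0.10, adjusted p = 0.446, limma), an interval that ended short of the rise of TNFRSF10A.

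Within each sample, TNFRSF10A was at 32.3%, 32.6% and 31.7% of the RPKM of TNFRSF10B in shRNA-NC and at 57.7%, 67.2% and 64.9% in shRNA-UBC9. The ratio was nearly the same in the 3 shRNA-NC samples (SD 0.02 on the log2 scale, n = 3) and higher in every shRNA-UBC9 sample. The difference was 0.96 on the log2 scale (exact permutation test, two-sided, p = 0.1, adjusted p = 0.2 over the 6 ratios).

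TNFRSF10D (chr8:23135588-23164027, minus strand) was at 6.54, 6.77 and 7.01 RPKM in shRNA-NC and at 8.90, 5.42 and 5.51 RPKM in shRNA-UBC9, in the order of the replicates. Replicate 1 of shRNA-UBC9 lay above all shRNA-NC samples and replicates 2 and 3 lay below them. The mean difference was therefore small, a log2 fold change of -0.07 ± 0.18 (SE, 95% interval -0.49 to 0.34, adjusted p = 0.775, limma). Without shRNA-UBC9 replicate 1 it was -0.30 (adjusted p = 0.0344, limma), past the threshold, so this 1 library decided the call. The other decoy, TNFRSF10C (chr8:23102921-23117445, plus strand), rested on 59 to 86 reads per sample and had a log2 fold change of 0.03 (adjusted p = 0.914, limma).

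FAS (chr10:88953813-89029605, plus strand), the receptor of FAS ligand, was at 3.18, 4.76 and 3.44 RPKM in shRNA-NC replicates 1, 2 and 3 and at 3.03, 1.33 and 0.967 RPKM in shRNA-UBC9 replicates 1, 2 and 3. Replicates 2 and 3 of shRNA-UBC9 were far below all controls, while replicate 1 lay just under shRNA-NC replicate 1. In reads the samples held 404, 701 and 495 in shRNA-NC and 464, 200 and 116 in shRNA-UBC9. FAS fell to 0.439 of its control level, a log2 fold change of -1.19 ± 0.36 (SE, 95% interval -2.00 to -0.37, adjusted p = 0.0316, limma). With shRNA-UBC9 replicate 1 left out it was -1.63 (adjusted p = 0.000945, limma), and without any 1 of the other 5 samples the adjusted p lay between 0.0613 and 0.0998, so that the gene lost its call. As a percent of the RPKM of TNFRSF10B, FAS was at 13.8%, 19.9% and 15.8% in shRNA-NC and at 13.9%, 5.99% and 4.62% in shRNA-UBC9, so that the groups overlapped in replicate 1 (exact permutation test, two-sided, p = 0.2, adjusted p = 0.24).

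TNFSF10 (chr3:172505508-172523475, minus strand), which encodes TRAIL, had the lowest mean of the 10 genes in both groups. It was at 0.753, 1.07 and 2.73 RPKM in shRNA-NC replicates 1, 2 and 3 and at 0.727, 2.49 and 0.520 RPKM in shRNA-UBC9 replicates 1, 2 and 3. A single high sample stood in each group, replicate 3 of shRNA-NC and replicate 2 of shRNA-UBC9, and the others lay between 0.520 and 1.07 RPKM. The log2 fold change was -0.36 ± 0.58 (SE, 95% interval -1.70 to 0.97, adjusted p = 0.654, limma), and with 1 sample left out in turn it ran from -0.98 to 0.14. These samples held 51 to 321 reads, and with this spread a change within the interval was not detectable. TNFSF10 is often counted among the interferon-stimulated genes. The RefSeq window of TNFSF10 held a match to the core of interferon response elements (GAAA, any 2 bases, GAAA, searched on both strands) 187 bases before the start, as did 3.57% of all windows, and none to the kappaB consensus. Of the other genes, 1 of the 3 windows of CASP8 held a match to this core, 3 bases before the start.

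CASP8 and CFLAR lie side by side on chromosome 2 with CASP10 between them. CFLAR (chr2:201116154-201176687, plus strand) encodes the inactive relative of the caspases that competes for FADD. It was at 2.54, 2.70 and 2.599 RPKM in shRNA-NC and at 3.77, 5.35 and 4.37 RPKM in shRNA-UBC9, in the order of replicates 1, 2 and 3. The 3 controls were nearly alike and all shRNA-UBC9 samples were above them, a 1.68-fold rise (log2 fold change 0.75 ± 0.13 SE, 95% interval 0.44 to 1.05, adjusted p = 0.00361, limma). RPKM divided its reads by 22529 bases, close to the union of its annotated exons in GENCODE (22478 bases) and longer than the canonical transcript (14612 bases), so its RPKM is low for its 1706 to 4251 reads per sample. The long and short forms of FLIP were not told apart in these gene totals.

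CFLAR is also known to respond to NF-kappaB, and 2 of its 4 RefSeq windows held a match to the kappaB consensus. The stretch around 1 of them is shown with the match in capitals (RefSeq, GRCh38.p14, chr2:201118599-201118648, plus strand). The match begins 97 bases before the start of that window's transcript.
CFLAR: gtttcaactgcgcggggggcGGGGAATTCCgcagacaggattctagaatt
The other match, in another window, begins 28 bases before its start. Matches were also found in 2 of the 3 RefSeq windows of FAS and in 1 of the 3 of CASP8, and 14.0% of all windows held at least 1.

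CASP8 (chr2:201233443-201361836, plus strand), the initiator caspase of the pathway, was at 5.47, 6.93 and 6.20 RPKM in shRNA-NC replicates 1, 2 and 3 and at 8.70, 8.73 and 7.35 RPKM in shRNA-UBC9 replicates 1, 2 and 3. The lowest shRNA-UBC9 sample, replicate 3, lay just above the highest control, replicate 2. The rise was the smallest of those that passed the test, 1.33-fold (log2 fold change 0.41 ± 0.12 SE, 95% interval 0.14 to 0.68, adjusted p = 0.0263, limma). It lost its call without shRNA-NC replicate 1 or 3 or without shRNA-UBC9 replicate 1 or 2, with an adjusted p from 0.0582 to 0.0874. The RPKM of CFLAR was 46.4%, 39.0% and 41.9% of that of CASP8 in shRNA-NC and 43.3%, 61.3% and 59.5% in shRNA-UBC9. The ratio in shRNA-UBC9 replicate 1 fell within the range of the controls, and the difference of 0.34 on the log2 scale did not separate the groups (exact permutation test, two-sided, p = 0.2, adjusted p = 0.24 over the 6 ratios).

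**Figure D3:**
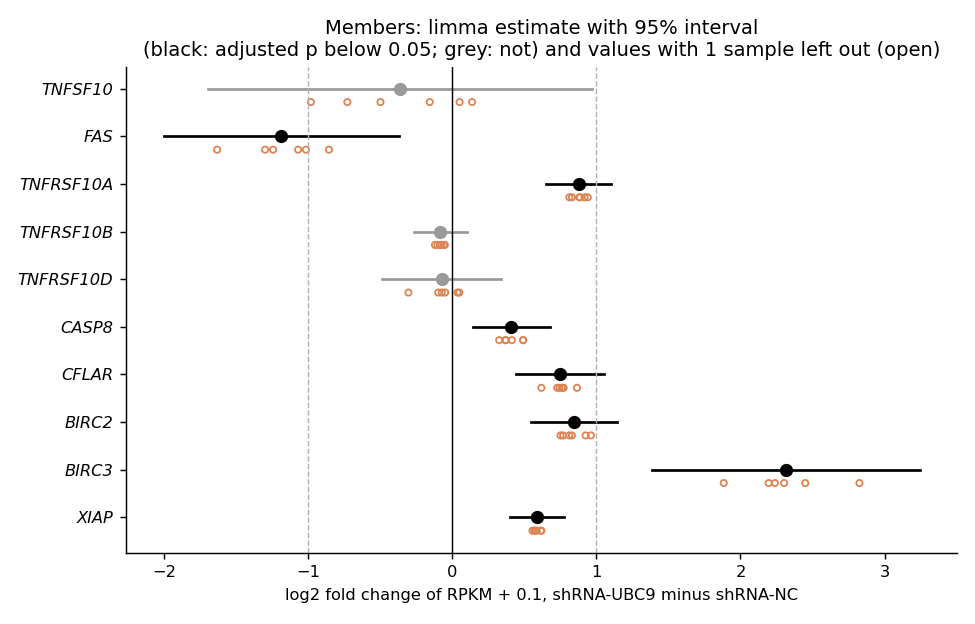
Log2 fold change of RPKM + 0.1 (horizontal axis, shRNA-UBC9 minus shRNA-NC) of the 10 genes with 95% intervals from limma, filled black where the adjusted p was below 0.05 and grey where it was not, and in open circles the values with 1 of the 6 samples left out. The circles of BIRC3 stay above 1, those of TNFRSF10A, BIRC2, XIAP and CFLAR stay above 0, those of FAS run from -1.63 to -0.86, and those of TNFSF10 and TNFRSF10D lie on both sides of 0.

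On the RPKM scale, which is per length, the order of the levels changed with the knock-down. In shRNA-NC the means ran from TNFRSF10B (22.9 RPKM) and BIRC2 (15.6) through XIAP (8.16), TNFRSF10A (7.39), TNFRSF10D (6.78), CASP8 (6.20), FAS (3.79) and CFLAR (2.61) to BIRC3 (1.70) and TNFSF10 (1.52). The samples of TNFRSF10A and TNFRSF10D, of TNFRSF10D and CASP8, of CFLAR and BIRC3 and of BIRC3 and TNFSF10 overlapped, so these neighbours were not separated by their spread. In shRNA-UBC9, BIRC2 came first (27.9 RPKM), followed by TNFRSF10B (21.6), TNFRSF10A (13.7), XIAP (12.3), CASP8 (8.26), BIRC3 (7.73), TNFRSF10D (6.61), CFLAR (4.50), FAS (1.78) and TNFSF10 (1.25). There the samples of TNFRSF10A and XIAP, of CASP8 and BIRC3, of BIRC3 and TNFRSF10D and of FAS and TNFSF10 overlapped. BIRC3 thus moved from beside TNFSF10 to beside CASP8, and FAS from above CFLAR to beside TNFSF10.

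The other genes of the pathway were taken from 8 lists of its parts, with 37 genes beside the 10. Of these, 29 were tested and 8 were below the filter. At an adjusted p below 0.05, 10 were higher (against 18.8% of all tested genes) and 6 lower (against 18.0%) in shRNA-UBC9 and 13 did not pass, with a median log2 fold change of 0.16. Among them 5 were up-regulated DEGs (against 5.2%) and 2 down-regulated DEGs (against 2.7%). TNF, an up-regulated DEG, and CASP10 passed the filter only through their shRNA-UBC9 samples, so their calls only describe them. These lists too were chosen with earlier results of these data known, so the counts describe them and test nothing.

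Of the other death ligands TNF alone was tested, and it passed the filter only through its shRNA-UBC9 samples. It was at 0.939, 1.55 and 0.282 RPKM in shRNA-NC and at 6.45, 7.01 and 5.58 RPKM in shRNA-UBC9 in the order of the replicates, a log2 fold change of 2.89 ± 0.45 (SE, adjusted p = 0.00203, limma). All shRNA-UBC9 samples were far above the controls, and within the controls replicate 2 was highest and replicate 3 lowest, as for BIRC3. FASLG, TNFSF15 and LTA did not reach 0.5 RPKM in any sample, so that the ligand of FAS was at or near 0 in these cells.

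Among the 5 other receptors and decoys tested, 1 was higher (against 18.8% of all tested genes) and 1 was lower (against 18.0%). TNFRSF11B, which encodes osteoprotegerin, a soluble decoy for RANK ligand and TRAIL, was at 1.84, 3.01 and 3.32 RPKM in shRNA-NC and at 11.7, 6.78 and 8.52 RPKM in shRNA-UBC9. It was an up-regulated DEG with a log2 fold change of 1.69 ± 0.25 (SE, adjusted p = 0.0016, limma), and no samples overlapped. TNFRSF21, which encodes the death receptor DR6, was at 4.25, 6.05 and 5.31 RPKM in shRNA-NC and at 3.38, 1.92 and 1.98 RPKM in shRNA-UBC9. It was a down-regulated DEG with a log2 fold change of -1.10 ± 0.22 (SE, adjusted p = 0.00614, limma). As in FAS and TNFRSF10D, replicate 1 was the highest of the shRNA-UBC9 samples in both genes. TNFRSF25 (log2 fold change 0.33, adjusted p = 0.157) and TNFRSF1A (-0.20, adjusted p = 0.163), the receptor of TNF, did not pass (limma), and the decoy TNFRSF6B was listed at 0 in all samples.

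The adaptors and the remaining initiator moved by less. TRADD, the adaptor of the TNF receptor, was at 6.86 ± 0.41 RPKM in shRNA-NC and 10.9 ± 1.3 in shRNA-UBC9 (SD, n = 3 each), and its log2 fold change was 0.66 (adjusted p = 0.00261, limma). FADD, the adaptor of FAS and the TRAIL receptors, was at 34.2 ± 1.5 RPKM in shRNA-NC and 28.2 ± 1.6 in shRNA-UBC9 (SD, n = 3 each), and its log2 fold change was -0.28 (adjusted p = 0.0308, limma). CASP10, the neighbour and relative of CASP8, was low, at 0.557 ± 0.120 RPKM in shRNA-NC and 0.943 ± 0.135 in shRNA-UBC9 (SD, n = 3 each), and its log2 fold change was 0.67 (adjusted p = 0.0321, limma). The calls of FADD and CASP10 did not hold with a single sample left out, other than shRNA-NC replicate 2 or shRNA-UBC9 replicate 3, with an adjusted p up to 0.112 for FADD and 0.111 for CASP10. RIPK1 (0.23, adjusted p = 0.115) and TRAF2 (0.04, adjusted p = 0.793) did not pass (log2 fold changes, limma).

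Of the 3 other IAP genes tested, 1 was lower (against 18.0% of all tested genes) and 2 did not pass. BIRC5, which encodes survivin, an IAP of dividing cells, was at 36.8, 39.5 and 34.8 RPKM in shRNA-NC and at 20.1, 24.3 and 26.9 RPKM in shRNA-UBC9. Its groups did not overlap, and its log2 fold change was -0.65 ± 0.12 (SE, adjusted p = 0.00403, limma). BIRC6 (log2 fold change 0.24, adjusted p = 0.0785) and NAIP (-0.43, adjusted p = 0.151) did not pass (limma), and BIRC7 was listed at 0 in all samples.

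Of the genes whose products counter IAPs, XAF1 was at 1.03, 2.87 and 1.63 RPKM in shRNA-NC and at 18.1, 34.1 and 14.5 RPKM in shRNA-UBC9, with a log2 fold change of 3.53 ± 0.39 (SE, adjusted p = 0.000445, limma). XAF1 is an XIAP-associated factor and is known to respond to interferon, whose part in these levels was not tested. Replicate 2 was the highest sample of both groups. HTRA2, a mitochondrial protease that cleaves IAPs once released, was at 8.84 ± 0.85 RPKM in shRNA-NC and 4.08 ± 0.44 in shRNA-UBC9 (SD, n = 3 each), and its log2 fold change was -1.10 (adjusted p = 0.000345, limma). DIABLO, which encodes the antagonist SMAC, had a log2 fold change of -0.06 (adjusted p = 0.658, limma), and SEPT4 was below the filter.

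Of 5 genes downstream of the initiators, 1 was lower (against 18.0% of all tested genes) and 4 did not pass. APAF1, the scaffold of the mitochondrial caspase complex, was at 7.16 ± 0.73 RPKM in shRNA-NC and 3.81 ± 0.33 in shRNA-UBC9 (SD, n = 3 each), and its log2 fold change was -0.89 (adjusted p = 0.000718, limma). The executioner caspase gene CASP6, with CASP9, CYCS and BID, had log2 fold changes between -0.17 and 0.21. MLKL, the effector of necroptosis, was at 5.59, 6.59 and 5.49 RPKM in shRNA-NC and at 12.6, 18.4 and 13.6 RPKM in shRNA-UBC9, with a log2 fold change of 1.31 ± 0.15 (SE, adjusted p = 0.000517, limma). RIPK3, the kinase that activates MLKL, was listed at 0 in all samples, and ZBP1 was below the filter.

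The lists held 6 enzymes that add or remove ubiquitin chains at the TNF receptor complex. Of these, 4 were higher (against 18.8% of all tested genes), 1 was lower (against 18.0%) and 1 did not pass. RNF31 and RBCK1, subunits of the linear ubiquitin ligase, had log2 fold changes of 0.72 (adjusted p = 0.00154, limma) and 0.70 (adjusted p = 0.00277, limma), while their partner SHARPIN had -0.03 (adjusted p = 0.841, limma). TNFAIP3, a ubiquitin-editing enzyme that restrains NF-kappaB and is its target, had a log2 fold change of 3.42 ± 0.33 (SE, adjusted p = 0.000256, limma). The deubiquitinases CYLD and OTULIN had log2 fold changes of 0.43 (adjusted p = 0.0483, limma) and -0.30 (adjusted p = 0.0391, limma). The call of OTULIN was lost with any 1 sample left out, and that of CYLD with any 1 of 4 samples.

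**Figure D4:**
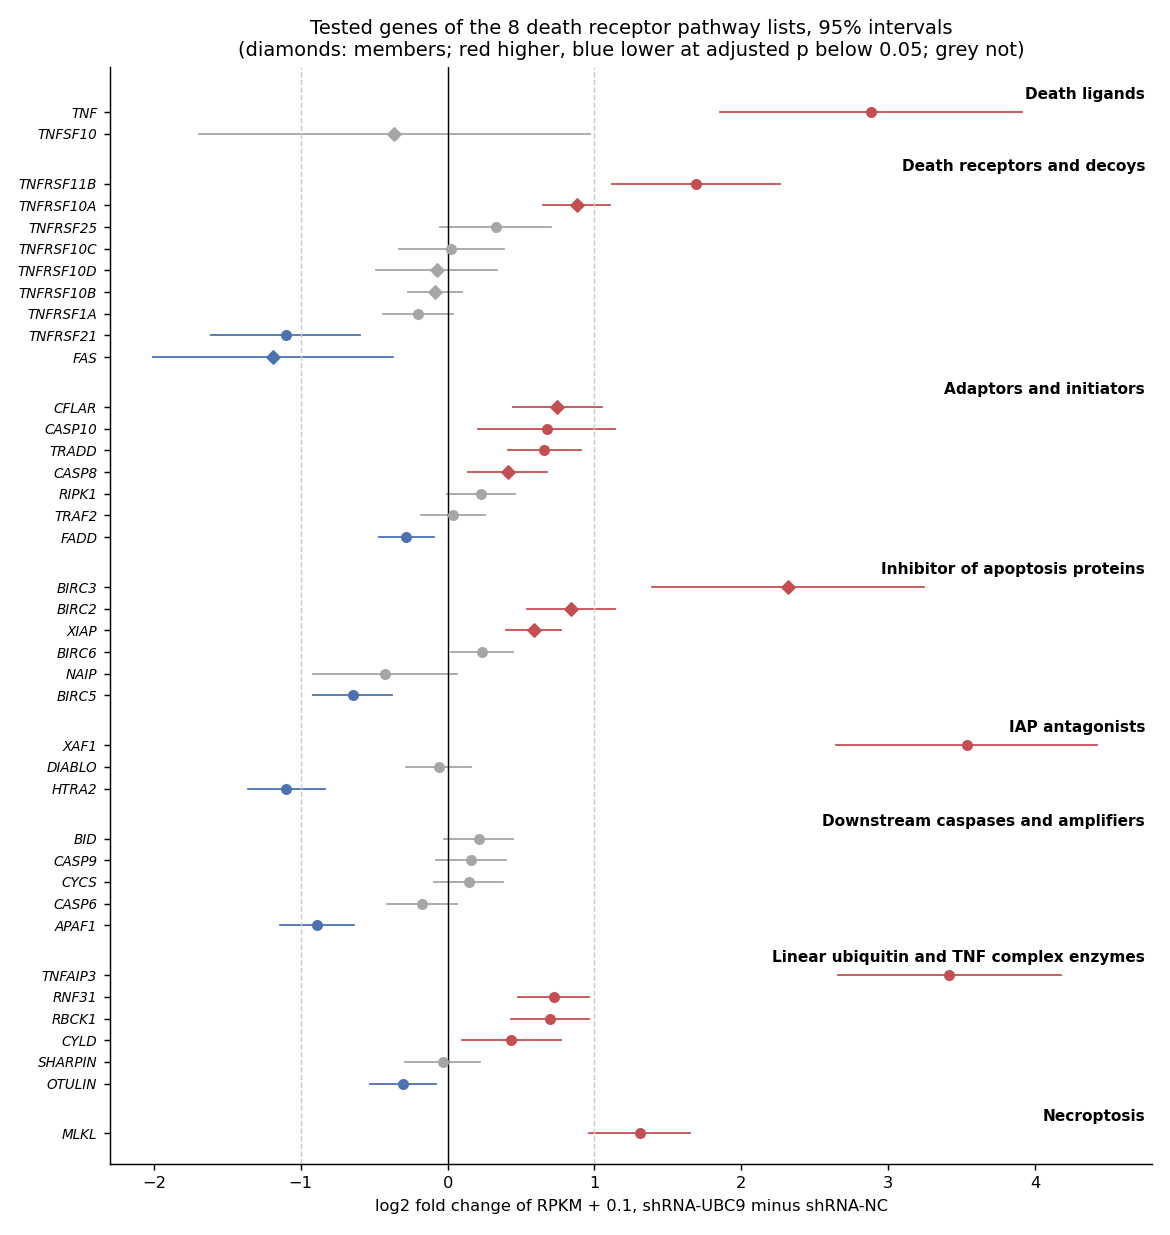
Log2 fold change of RPKM + 0.1 (horizontal axis, shRNA-UBC9 minus shRNA-NC) with 95% intervals from limma for the tested genes of the 8 pathway lists. Diamonds are the 10 genes described here and circles the 29 others, red where higher and blue where lower at an adjusted p below 0.05 and grey where neither, with dashed lines at -1 and 1, and the receptors run from TNFRSF11B at 1.69 to FAS at -1.19.

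The pathway genes were set beside lists of targets of 3 regulators known to act on them. Of 19 tested NF-kappaB targets, 16 were higher (against 18.8% of all tested genes) and 0 lower (against 18.0%) at an adjusted p below 0.05 (limma). Their median log2 fold change was 2.08. Of 20 interferon-stimulated genes, 19 were higher and 0 lower, beside the same shares, with a median of 2.68. The lists were chosen with earlier results of these data known. BCL2A1 and RSAD2, 1 in each of these lists, passed the filter only through their shRNA-UBC9 samples. These counts therefore describe the lists and test nothing. In neither list was a gene lower at an unadjusted p below 0.05, by limma on log2(RPKM + 0.1) or by voom on the recovered reads (0 each). Among the 3 genes with the smallest adjusted p of their lists were PTGS2, a prostaglandin synthase, with a log2 fold change of 6.49 and IRF7, an interferon regulatory factor, with 2.52. Of 20 p53 targets, 5 were higher (against 18.8% of all tested genes) and 3 lower (against 18.0%), and 12 did not pass, with a median of 0.09. CDKN1A, the cell cycle inhibitor, was at 9.04 ± 0.40 RPKM in shRNA-NC and 38.5 ± 6.2 in shRNA-UBC9 (SD, n = 3 each), while CCNG1, a p53-induced cyclin, was at 65.0 ± 2.0 and 26.01 ± 1.17 RPKM (SD, n = 3 each). FAS and TNFRSF10B, also known as p53 targets, were left out of that list as they are among the 10 genes described.

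By sample, the mean log2(RPKM + 0.1) of the NF-kappaB targets was 2.96, 3.39 and 2.38 in shRNA-NC replicates 1, 2 and 3, and BIRC3 was at 0.48, 1.66 and -0.23 on the same scale. Both were highest in replicate 2 and lowest in replicate 3 of the controls. In shRNA-UBC9 the list was at 5.51, 5.63 and 5.45 and BIRC3 at 3.19, 2.98 and 2.69, so that both were above all controls and the order within the group was not the same. The interferon-stimulated genes were at 3.25, 4.11 and 3.52 in shRNA-NC and at 6.17, 7.04 and 6.01 in shRNA-UBC9, all 3 above the controls. TNFSF10 was at -0.23, 0.23 and 1.502 in shRNA-NC and at -0.28, 1.37 and -0.69 in shRNA-UBC9. It thus shared with this list the high value of shRNA-UBC9 replicate 2, but not the difference between the groups or the highest control. The part of these regulators in the levels of BIRC3 and TNFSF10 was not tested.

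**Figure D5:**
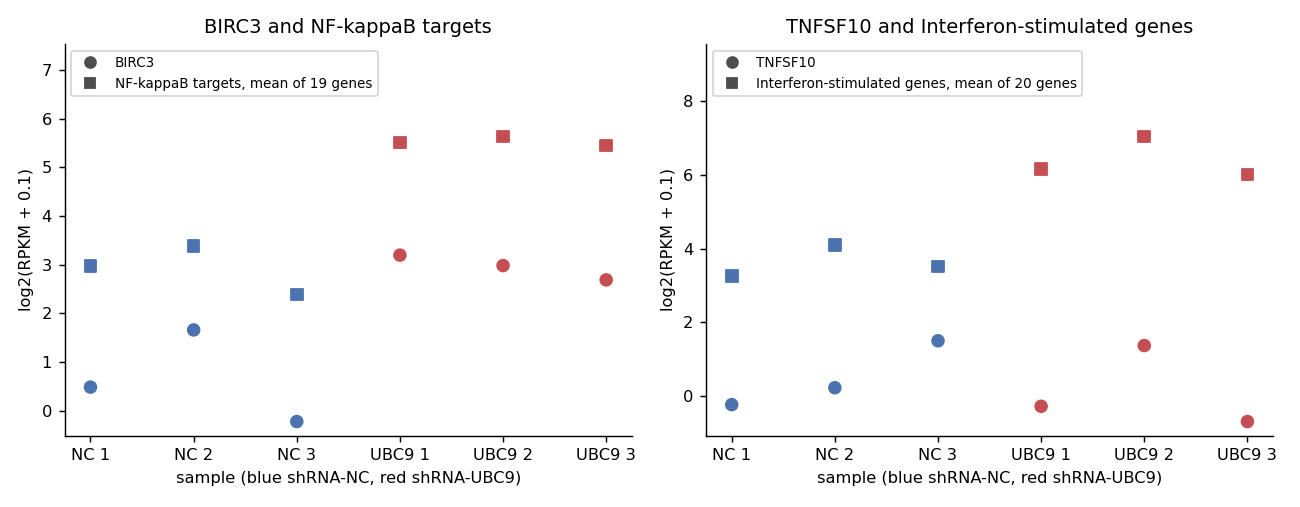
Log2(RPKM + 0.1) per sample (vertical axes) of BIRC3 with the mean of 19 NF-kappaB targets (left) and of TNFSF10 with the mean of 20 interferon-stimulated genes (right), for the 3 shRNA-NC (blue) and 3 shRNA-UBC9 (red) samples, with circles for the gene and squares for the list. BIRC3 and its list are both higher in all shRNA-UBC9 samples, while TNFSF10 is high in shRNA-NC replicate 3 and shRNA-UBC9 replicate 2.

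Over the 6 samples, the pathway genes whose log2(RPKM + 0.1) was most like that of each gene that passed were as follows, out of 38 genes searched. The Pearson r of BIRC3 was 0.99 with TNF, 0.97 with CASP10 and 0.96 with TNFAIP3. For FAS it was 0.96 with TNFRSF21, 0.92 with NAIP and 0.86 with APAF1, and for TNFRSF10A it was 0.99 with MLKL, 0.98 with RNF31 and 0.98 with TNFAIP3. CFLAR was most like MLKL (0.99), TNFRSF10A (0.97) and XAF1 (0.96), and CASP8 most like CYLD (0.98), CASP10 (0.97) and BIRC2 (0.97). BIRC2 was most like CASP10 (0.98), XAF1 (0.97) and CASP8 (0.97), and XIAP most like TNFRSF11B (0.96), BIRC2 (0.96) and TNFRSF10A (0.96). These values describe 6 samples that fall into 2 groups and share their libraries, so that genes which differed between the groups in the same direction had to have a high r.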

How the data were processed

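RNA-seq of T24 cells was analysed for 3 shRNA-NC and 3 shRNA-UBC9 samples, grouped by the sample labels. Per the paper's methods, the authors removed adaptors and aligned the reads to GRCh38 in the CLC Biomedical Genomics Workbench with default settings, and RPKM values per gene were deposited by the authors. The annotation release and the treatment of reads that match several places were not given in the sources used here. RPKM corrects for gene length and mapped reads, not for RNA composition.

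Values were taken to log2(RPKM + 0.1), on which fold changes understate those of low genes, and the groups were compared for genes that reached 0.5 RPKM in 3 or more samples by limma 3.58.1 under R 4.3.3 (lmFit, then eBayes with an intensity trend, Benjamini-Hochberg over all 12428 tested genes, no covariate). Ratios between genes were compared by exact permutation tests. Mapped reads (28219032 to 36058872 per sample) and reads per gene were recovered from the RPKM steps with exon lengths of GENCODE release 44, which gives whole reads but no file of counts. The steps were tested on simulated data. Gene positions are those of GENCODE release 44 (GRCh38), and promoter windows are those of RefSeq (GRCh38.p14), with no entry for TNFRSF10A, TNFRSF10B or TNFRSF10D.

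The genes named are the 10 members, every other gene of the 8 pathway lists that passed, up to 3 further genes per list, examples of the regulator lists and the genes most like each member. The members and lists were chosen with earlier results of these data known. Alternatives were other pseudocounts and filters, scaling by quantiles or by the median, no intensity trend, an unadjusted p, a replicate block, leaving out each sample and, chosen after seeing the data, limma voom on the recovered reads and the same alternatives for the other named genes. Calculations outside R used Python 3.11.15 with numpy 2.4.6, pandas 2.3.3, scipy 1.17.1 and matplotlib 3.10.9. A few genes are not reported here. Data of other assays in the study were not analysed here.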

Additional observations from a re-analysis of the deposited data

How the results depend on the processing

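The calls of TNFRSF10A, BIRC2, BIRC3, XIAP and CFLAR kept their direction and their side of the threshold under every alternative in which the gene was tested. Of the 10 genes, the count lower in shRNA-UBC9 (1, FAS) was 0 with no filter and 0 with an RPKM of at least 1 in all 6 samples, where FAS, BIRC3 and TNFSF10 were not tested, and 0 to 2 with 1 sample left out. The count of down-regulated DEGs among them (1, FAS) was 0 with a pseudocount of 1, 0 with no filter, 0 with the RPKM filter of at least 1, and 0 to 1 with 1 sample left out, and that of up-regulated DEGs (1, BIRC3) was 0 with the filter of at least 1. FAS ran from -1.63 to -0.84 in log2 fold change over its alternatives (adjusted p from 0.000945 to 0.0998, limma), with 0.0872 with no filter, and its unadjusted p stayed below 0.05, at 0.041 at most, in every fit that tested it. CASP8 ran from 0.33 to 0.49 (adjusted p from 0.0198 to 0.0874), with 0.0528 with no filter. Over all tested genes, the 646 up-regulated DEGs became 391 with a pseudocount of 1 and 342 with the filter of at least 1, and the 335 down-regulated DEGs became 222 with a pseudocount of 0.5, 161 with 1 and 210 with the filter. The median log2 fold change of all tested genes stayed between -0.04 and 0.02. Voom on the recovered reads gave 6 genes higher and 1 lower, with FAS at -1.21 (adjusted p = 0.0239, limma) and BIRC3 at 2.40.

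Both groups are numbered 1 to 3, but equal numbers did not mark shared deviations from the group means (correlations of -0.37, 0.07 and -0.17 over genes), so the numbers were not taken as pairs. With the replicate block, 6 of the 10 genes were higher and 1 lower, with 642 and 332 DEGs in all, and of the 29 other pathway genes 8 were higher and 4 lower in place of 10 and 6, with CASP10, CYLD, FADD and OTULIN no longer passing. Of the other genes, NAIP passed with quantile normalization (adjusted p = 0.0475) and BID without shRNA-NC replicate 2 (adjusted p = 0.0353), and CYLD (adjusted p from 0.0291 to 0.146) and OTULIN (from 0.0209 to 0.102) rested on the settings. TNFSF10 held 51 to 321 reads per sample.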
